A study of Mus musculus with 14 samples.

Results

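Amino acid transporter genes are described here across 14 arrays of mouse lung RNA. The set was fixed by name: every gene on the array whose symbol starts with Slc1a, Slc3a, Slc6a, Slc7a, Slc36a, Slc38a or Slc43a, except Slc7a2 and Slc7a11. This gave 61 of 18194 named genes, with 7 in the Slc1a family, 2 in Slc3a, 21 in Slc6a, 14 in Slc7a, 5 in Slc36a, 9 in Slc38a and 3 in Slc43a. Of the 61, Slc36a1os, Slc6a19os and Slc7a6os carry names of genes on the opposite strand and entered through the rule, which leaves 58 without them. Not every protein of these families carries amino acids: Slc6a2 takes up noradrenaline, Slc6a4 serotonin, Slc6a8 creatine and Slc43a3 purine nucleobases.

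Cells import amino acids through membrane carriers that differ in what they accept and in what drives them. The Slc7 light chains exchange amino acids across the membrane as pairs with a heavy chain, Slc3a2 or Slc3a1, which brings them to the cell surface. Slc38 and many Slc6 carriers use the sodium gradient, Slc36a1 and Slc36a2 use protons, and the Slc43 carriers let large neutral amino acids pass without a driving ion. In the lung, airway and alveolar epithelium, endothelium and immune cells all express such carriers, and leukocytes raise several of them on activation.

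The arrays fell into 4 groups by their titles. Control mice (n = 4, aged 18 to 22 weeks) received PBS, and VALI mice (n = 4, aged 18 to 22 weeks) were ventilated for 4 h at 40 ml/kg tidal volume per the sample labels, where the series text gives 30 ml/kg. PBEF+/- mice (n = 3, aged 18 to 22 weeks) were not ventilated, and VILI PBEF+/- mice (n = 3, aged 8 to 12 weeks) were ventilated for 4 h at 40 ml/kg. The series text speaks of recombinant human PBEF given into the trachea, while the title PBEF+/- could also stand for a genotype, so the 2 groups are called here only by that title. All animals shared a 12 h light-dark cycle, and the labels give neither strain nor sex. The descriptive field of each sample speaks of a control animal, also in the ventilated groups, and nothing says whether replicates came from separate animals, so the p-values reflect how far these arrays differ among themselves, which may be technical.

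The values are log2 expression levels as deposited, and a gene stands for its probe set with the highest mean over the arrays. Array medians lay between 4.60 and 4.75. Of the 61 genes, 33 passed the filter on low values (above the array median on at least 3 arrays) and entered a limma fit with 11360 genes in all. Within the 33, Slc43a1 was above the median on 4 arrays, Slc36a1 on 10, Slc7a5 on 13 and the other 30 on all 14. A gene was called changed where the adjusted p (Benjamini-Hochberg over all 11360 genes) was under 0.05, and log2 differences are given ± standard error.

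The library labelled VALI replicate 4 and the library labelled PBEF+/- replicate 3 went against their labels. Interleukin 6, which was 9.60 to 9.85 in the other VALI arrays, was 2.78 in VALI replicate 4, beside 2.09 to 2.45 in Control. In PBEF+/- replicate 3 it was 10.87, beside 2.10 and 2.56 in the other PBEF+/- arrays and 10.32 to 12.75 in VILI PBEF+/-. Each comparison below has 2 versions, one as labelled and one without the 2 arrays. The reason to leave them out was a measured level and not a label, so calls made without them hold only if those arrays do not stand for their groups. The arrays also differed in sex-linked transcripts: Xist, which is expressed from the inactive X of females, was above the Y-linked Eif2s3y in 2 of 4 Control, 3 of 4 VALI, 2 of 3 PBEF+/- and 3 of 3 VILI PBEF+/- arrays, and without the 2 arrays in 2 of 4, 3 of 3, 1 of 2 and 3 of 3. Fewer cells of a type and less RNA per cell cannot be told apart in whole lung.

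The 28 genes that were not tested ranged from 1.57 to 5.03 over all arrays. They were Slc1a2, Slc1a6 and Slc1a7 among glutamate carriers, Slc3a1 among heavy chains, Slc7a3, Slc7a8, Slc7a9, Slc7a12, Slc7a13, Slc7a14 and Slc7a15 in the Slc7 family, Slc36a1os, Slc36a3 and Slc38a3, and 14 of 21 in the Slc6 family (Slc6a3, Slc6a4, Slc6a5, Slc6a7, Slc6a11, Slc6a12, Slc6a13, Slc6a16, Slc6a17, Slc6a18, Slc6a19, Slc6a19os, Slc6a20b and Slc6a21). The highest single value among them was 5.03 for Slc6a4. Of the heavy chains, the kidney and gut type Slc3a1 and its partner Slc7a9 stayed at or below 1.83 and 2.17 on every array.

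The probe sets with the highest mean level belonged to Slc38a2 (13.01 over 14 arrays), Slc43a3 (12.68), Slc3a2 (12.28), Slc6a14 (12.02), the taurine carrier Slc6a6 (11.98), Slc6a2 (11.54), the glutamine and neutral amino acid exchanger Slc1a5 (11.09) and the arginine carrier Slc7a1 (10.57). These are levels of single probe sets, which bind with different strength, so their order is not an order of transcript amounts. In all, 25 of the 61 had a mean above 8.

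VALI against Control asks how ventilated lungs differed from lungs of mice given PBS. With the 2 arrays left out, Slc7a5, its heavy chain Slc3a2, Slc7a1, Slc7a6, Slc6a14, Slc38a2, Slc38a4 and Slc36a4 were called higher on the ventilated arrays. Slc6a15, Slc7a4, Slc7a7, Slc38a5 and Slc36a2 were called lower. Without the 2 arrays (n = 3 and 4) limma called 13 of 33 members, 8 higher and 5 lower. This is 39.4% of the tested members, where 17.0% of all tested genes were called (6.53% higher and 10.5% lower). The members' median log2 difference was 0.04 beside -0.08 over all tested genes, and their median absolute difference was 0.43 beside 0.23. Leaving out VALI replicate 1 or 2 as well gave 7 or 6 called members, beside 8.67% or 9.15% of all genes. As labelled (n = 4 and 4), limma called 0 members where 0.0% of all genes were called, with 9 members and 2075 genes at an unadjusted p under 0.05. The member with the smallest p was then Slc6a14 (0.87 ± 0.21, adjusted p = 0.0962), before Slc6a15 (-1.24 ± 0.38, adjusted p = 0.154) and Slc7a5 (2.88 ± 1.01, adjusted p = 0.186). Leaving out VALI replicate 4 alone gave 2 called members, beside 5.99% of all genes. Leaving out PBEF+/- replicate 3 alone, which shares the estimate of the spread, gave 3, beside 2.54%.

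Slc7a5 encodes the light chain of the exchanger that carries leucine and other large neutral amino acids into cells. Its log2 level was 5.80, 6.52, 6.94 and 6.25 in Control and 9.64, 10.06 and 10.16 in VALI replicates 1 to 3, with 7.17 in VALI replicate 4. All 4 VALI arrays were above all Control arrays, and replicate 4 was closest to Control. The log2 difference without the 2 arrays was 3.58 ± 0.47 (11.9-fold, adjusted p = 0.000767), the largest among the members called.

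Slc3a2, the heavy chain that Slc7a5 needs at the membrane, read 12.07, 12.02, 11.90 and 12.19 in Control and 12.38, 12.55 and 12.67 in VALI replicates 1 to 3. VALI replicate 4, at 11.88, was below every Control array. The difference without the 2 arrays was 0.49 ± 0.09 (1.41-fold, adjusted p = 0.00394), smaller than that of its light chain on the log2 scale. As labelled the groups overlapped and the difference was 0.33 ± 0.19 (adjusted p = 0.359).

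Slc7a1 carries arginine, lysine and ornithine without a heavy chain. Its level was 9.61, 9.64, 9.69 and 10.14 in Control and 11.13, 11.40 and 11.64 in VALI replicates 1 to 3. The fourth VALI array, at 9.97, lay within the Control range. Without the 2 arrays the difference was 1.62 ± 0.17 (3.08-fold, adjusted p = 0.000205), and a second probe set of the gene above the array median differed by 1.92.

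Among the other light chains that pair with Slc3a2, Slc7a6, which exchanges cationic for neutral amino acids, was higher in VALI without the 2 arrays (0.82 ± 0.20, adjusted p = 0.0188). Its level was 7.68, 8.26, 8.20 and 7.42 in Control and 8.44, 8.80 and 8.87 in VALI replicates 1 to 3. The closely related Slc7a7 was lower, at 7.49, 8.10, 8.02 and 8.41 in Control and 7.24, 7.04 and 7.34 in VALI (-0.80 ± 0.23, adjusted p = 0.0379). For neither gene did VALI replicates 1 to 3 overlap Control, and VALI replicate 4 lay within the Control range for both, at 7.53 and 8.06. Slc7a10, a carrier of small neutral amino acids, was 9.30 to 9.64 in Control and 8.58 to 8.76 in VALI replicates 1 to 3, and its difference of -0.82 ± 0.30 did not pass the threshold (adjusted p = 0.079). Slc7a4, which resembles the cationic carriers in sequence, was 6.57, 6.05, 6.13 and 7.003 in Control and 5.18, 5.55 and 5.93 in VALI, and was called lower (-0.89 ± 0.27, adjusted p = 0.045). The partners Slc7a8 and Slc7a9 were not tested.

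Slc6a14, an epithelial carrier that takes up both neutral and cationic amino acids, was 11.57, 11.09, 11.33 and 11.51 in Control and 12.24, 12.75 and 12.41 in VALI replicates 1 to 3. The level in VALI replicate 4 was 11.59, just above the highest Control array. The difference without the 2 arrays was 1.09 ± 0.14 (2.13-fold, adjusted p = 0.000681). Slc6a15, which carries branched-chain amino acids and proline, moved the other way. It read 7.26, 7.46, 7.25 and 8.17 in Control, 5.62, 6.30 and 6.19 in VALI replicates 1 to 3 and 7.05 in replicate 4, so that all VALI arrays were below all Control arrays. Its difference without the 2 arrays was -1.50 ± 0.30 (2.83-fold lower, adjusted p = 0.00712).

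Of the Slc38 carriers for glutamine, alanine and other small neutral amino acids, Slc38a2 and Slc38a4 were called higher and Slc38a5 lower. Slc38a2 was 12.78, 12.70, 12.79 and 12.70 in Control, 13.16, 13.17 and 13.19 in VALI replicates 1 to 3 and 12.76 in replicate 4. The spread within each set was small beside the gap, and the difference without the 2 arrays was 0.43 ± 0.06 (1.35-fold, adjusted p = 0.00143). Slc38a4 was spread over 7.28 to 9.36 in Control, with 10.20, 10.58 and 10.05 in VALI replicates 1 to 3 and 7.25 in replicate 4, and its difference was 1.68 ± 0.43 (adjusted p = 0.021). Slc38a5 was 9.36, 8.79, 8.70 and 9.54 in Control, 8.26, 8.32 and 8.22 in VALI replicates 1 to 3 and 9.22 in replicate 4 (-0.83 ± 0.22, adjusted p = 0.0236). For Slc38a2, taking the mean of all its probe sets ended the call. That mean includes a probe set below the array median, which differed by 0.01. The other probe set above the median differed by 0.44, and its arrays did not overlap.

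The Slc36 carriers were split. Slc36a4 was 9.06 to 9.25 in Control and 9.48 to 9.63 in VALI replicates 1 to 3 (0.39 ± 0.12, adjusted p = 0.0396), and Slc36a2 was 9.22 to 9.74 and 8.78 to 9.15 (-0.53 ± 0.14, adjusted p = 0.0265). The call of Slc36a4 ended under 13 of 22 alternatives, that of Slc7a4 under 11 and that of Slc7a7 under 10. The calls of Slc7a1, Slc7a5, Slc3a2, Slc6a14 and Slc6a15 held under all 22.

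**Figure D1:**
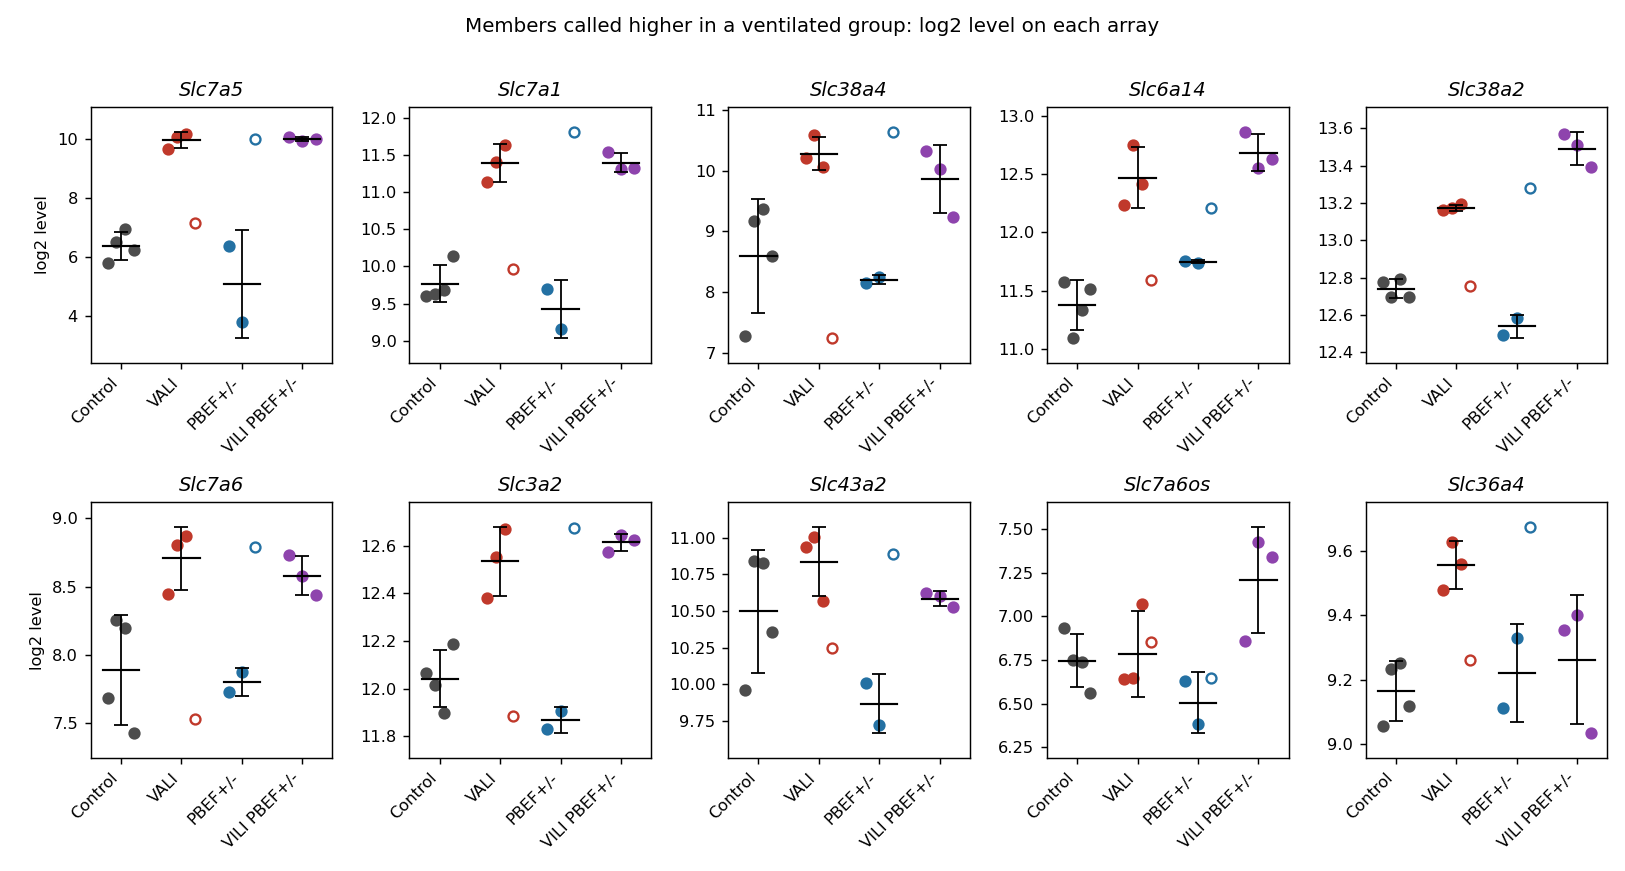
Log2 level (vertical axes, each on its own scale) of the 10 members called higher in a ventilated group, one point per array, in the 4 groups. Open circles are VALI replicate 4 and PBEF+/- replicate 3, and bars give mean and SD of the filled points. Slc7a5 lies at 9.64 to 10.16 in VALI replicates 1 to 3 and at 5.80 to 6.94 in Control, and its open circles lie at 7.17 and 9.98.

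The counts above set ventilated arrays that all had Xist above Eif2s3y beside Control arrays of which 2 of 4 did. Among arrays with Xist above Eif2s3y alone, Control replicates 2 and 3 and VALI replicates 1 to 3, limma called 7 of the 13 members, beside 17.6% of all genes. These were Slc7a5 (3.22 ± 0.18), Slc7a1 (1.73 ± 0.14), Slc6a14 (1.26 ± 0.16), Slc3a2 (0.58 ± 0.09) and Slc38a2 (0.43 ± 0.07), which were higher, and Slc6a15 (-1.32 ± 0.30) and Slc7a7 (-0.85 ± 0.12), which were lower. With the pattern as a covariate, limma called the same count of 7, beside 13.98% of all genes. The sizes of Slc38a4 (1.02 ± 0.30), Slc7a6 (0.48 ± 0.15) and Slc38a5 (-0.48 ± 0.18) were each smaller among these arrays than with all Control arrays, and none passed the threshold there.

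Markers of several cell types also differed in this comparison, where without the 2 arrays 6.53% of all genes were called higher and 10.5% lower. For macrophage and endothelial markers the sum in VALI replicate 4 lay within the range of the other VALI arrays. Sums here add the unlogged levels and are given as log2, so that the markers with the highest levels weigh most. The sum of 11 neutrophil markers was 12.31 to 13.96 in Control and 15.57 to 16.06 in VALI replicates 1 to 3. VALI replicate 4 stood at 14.12, and 7 of 9 tested markers were called higher without the 2 arrays. For 8 T and B lymphocyte markers the sum was 11.05 to 11.43 in Control and 10.26 to 10.68 in VALI replicates 1 to 3. In VALI replicate 4 it was 12.14. Called lower were 3 of 7 tested, the B cell genes Cd79a (-1.14), Cd79b (-0.97) and Ms4a1 (-1.16), and no T cell marker. Of the resident cells, 0 of 7 alveolar type II markers (1 at an unadjusted p under 0.05 in limma), 3 of 6 type I markers (all lower) and 6 of 7 club and ciliated cell markers (all lower) were called. Of 9 endothelial markers 3 were called lower, Tek (-0.89), Sox18 (-1.11) and Kdr (-0.94), and their summed level was 15.75 to 15.94 in Control, 15.49 to 15.68 in VALI replicates 1 to 3 and 15.67 in replicate 4. Of 10 macrophage markers, Cd14 (1.57) and Mrc1 (0.89) were called higher, and the sum was 13.65 to 14.58 in Control, 14.51 to 15.47 in VALI replicates 1 to 3 and 15.23 in replicate 4. Of 8 tested heart and skeletal muscle markers, Acta1 was called higher (6.49). The sum of the 9 measured markers of this list was 14.89 to 15.23 in Control. In VALI replicates 1 to 3 it was 16.32, 14.85 and 14.66, and 17.00 in replicate 4. The part of these cell types in the members' differences was not tested.

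VILI PBEF+/- against PBEF+/- asks the same of the groups titled PBEF+/-, whose ventilated mice were also younger, so that ventilation and age cannot be told apart. With the 2 arrays left out, Slc7a5, Slc7a1, Slc3a2, Slc6a14 and Slc38a2 were among those called higher on ventilated arrays, and Slc38a5, Slc38a6 and Slc6a6 among those called lower. Without the 2 arrays (n = 3 and 2) limma called 14 of 33 members, 9 higher and 5 lower. This is 42.4% of the tested members, where 26.4% of all tested genes were called (11.2% higher and 15.3% lower). The median log2 difference was 0.14 in the members and -0.07 in all tested genes, and the median absolute difference was 0.70 and 0.33. Centring the arrays on their median turned the split over all genes from 1267 higher and 1736 lower to 1384 higher and 1153 lower, and gave 9 members higher and 4 lower. Leaving out VILI PBEF+/- replicate 1 or 2 as well gave 9 or 8 called members, beside 16.02% or 16.8% of all genes. As labelled (n = 3 and 3), limma called 0 members where 0.0% of all genes were called, with 9 members and 2355 genes at an unadjusted p under 0.05. Slc38a2 (0.70 ± 0.17, adjusted p = 0.127), Slc38a5 (-1.18 ± 0.31, adjusted p = 0.129) and Slc7a6os (0.65 ± 0.18, adjusted p = 0.137) then had the smallest p, and leaving out PBEF+/- replicate 3 alone gave 8 called members, beside 18.99% of all genes.

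Slc7a5 was 6.39 and 3.81 in PBEF+/- replicates 1 and 2 and 10.07, 9.93 and 10.002 in VILI PBEF+/-, with 9.98 in PBEF+/- replicate 3. The ventilated arrays spanned 9.93 to 10.07, and the third PBEF+/- array lay among them. The difference without the 2 arrays was 4.90 ± 0.56 (29.9-fold, limma adjusted p = 0.000225). The 3.81 of PBEF+/- replicate 2 lies below the array medians of 4.60 to 4.75, so this fold rests partly on a low value. Among arrays with Xist above Eif2s3y, where PBEF+/- replicate 1 alone stands for its group and replicate 2 with its low value is left out, the difference was 3.61 ± 0.23. In such a fit the lone array is assumed to vary like the other groups.

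Slc3a2 was 11.83 and 11.91 in PBEF+/- replicates 1 and 2 and 12.57, 12.65 and 12.62 in VILI PBEF+/- (0.75 ± 0.11, adjusted p = 0.000777). Slc7a1 was 9.70 and 9.15 in the former and 11.54, 11.31 and 11.33 in the latter (1.97 ± 0.21, 3.90-fold, adjusted p = 0.000139). Slc6a14 was 11.76 and 11.74 beside 12.86, 12.56 and 12.63 (0.93 ± 0.17, adjusted p = 0.0031). For each of these the ventilated arrays were apart from PBEF+/- replicates 1 and 2. PBEF+/- replicate 3 read 12.68 for Slc3a2, 11.81 for Slc7a1 and 12.21 for Slc6a14, above the ventilated arrays for the first pair and between the groups for the third.

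Slc38a2 had the smallest p of the members in this comparison. It was 12.50 and 12.58 in PBEF+/- replicates 1 and 2, 13.28 in replicate 3 and 13.57, 13.51 and 13.39 in VILI PBEF+/-, so that even as labelled the groups did not overlap. The difference without the 2 arrays was 0.95 ± 0.08 (1.93-fold, adjusted p = 2.14e-05). A second probe set of Slc38a2 above the array median differed by 0.41 here, less than the chosen one.

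Slc38a4 was 8.15 and 8.26 beside 10.32, 10.02 and 9.23 (1.65 ± 0.51, adjusted p = 0.0347), and Slc7a6 was 7.73 and 7.87 beside 8.73, 8.58 and 8.44 (0.78 ± 0.24, adjusted p = 0.0353). Slc7a6os, which neighbours Slc7a6 in the annotation, was 6.63 and 6.38 beside 6.86, 7.42 and 7.34 (0.70 ± 0.21, adjusted p = 0.0328). The facilitated carrier Slc43a2 was 10.01 and 9.73 beside 10.62, 10.60 and 10.53 (0.72 ± 0.24, adjusted p = 0.0465). Another Slc43a2 probe set above the array median differed by 0.04 with overlapping arrays, and its call ended under 15 of 22 alternatives.

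Slc38a5 was 9.16 and 9.35 in PBEF+/- replicates 1 and 2 and 7.77, 7.56 and 8.24 in VILI PBEF+/- (-1.40 ± 0.26, 2.64-fold lower, adjusted p = 0.00346). Slc38a6, of the same family, was 8.67 and 8.83 beside 7.42, 7.14 and 7.98 (-1.23 ± 0.26, adjusted p = 0.0064). The taurine carrier Slc6a6 was 12.54 and 12.36 beside 11.61, 11.51 and 11.50 (-0.91 ± 0.23, adjusted p = 0.0152). In all of these the third PBEF+/- array was lower than replicates 1 and 2, at 8.59, 7.57 and 11.87. Slc6a15 (-1.24 ± 0.36, adjusted p = 0.0258) and Slc36a2 (-0.52 ± 0.17, adjusted p = 0.0455) were also called lower. The call of Slc36a2 ended under 12 of 22 alternatives.

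**Figure D2:**
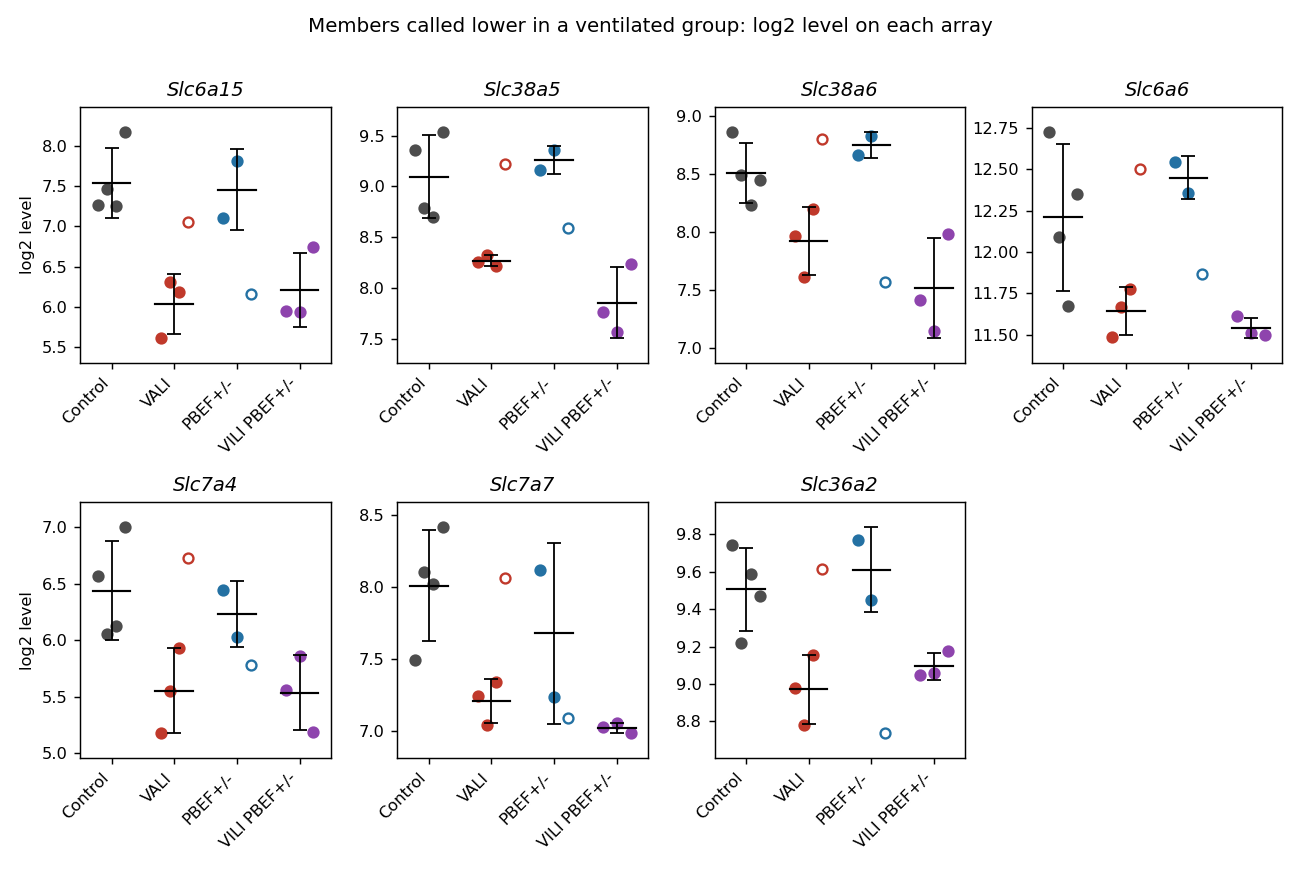
Log2 level (vertical axes, each on its own scale) of the 7 members called lower in a ventilated group, one point per array, in the 4 groups. Open circles are VALI replicate 4 and PBEF+/- replicate 3, and bars give mean and SD of the filled points. Slc38a5 lies at 8.22 to 8.32 in VALI replicates 1 to 3 and at 8.70 to 9.54 in Control, with VALI replicate 4 at 9.22.

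Among arrays with Xist above Eif2s3y, limma called 15 members in this comparison, 12 of them among the 14, beside 24.8% of all genes. With the pattern as a covariate it called 8, beside 18.8% of all genes. These were Slc7a5 (4.24 ± 0.40), Slc7a1 (1.94 ± 0.23), Slc6a14 (1.04 ± 0.17), Slc38a2 (0.96 ± 0.08), Slc3a2 (0.82 ± 0.11), Slc38a5 (-1.14 ± 0.22), Slc38a6 (-1.11 ± 0.28) and Slc6a6 (-0.72 ± 0.22). Neutrophil markers summed to 13.02 and 13.87 in PBEF+/- replicates 1 and 2, 15.73 in replicate 3 and 15.69 to 15.72 in VILI PBEF+/-, and lymphocyte markers to 11.56, 11.71, 10.72 and 9.51 to 10.55. Without the 2 arrays 6 of 9 neutrophil markers were called higher and 3 of 7 lymphocyte markers lower. Of all genes, 11.2% were called higher and 15.3% lower. The 3 lymphocyte markers were again the B cell genes Cd79a (-1.59), Cd79b (-1.84) and Ms4a1 (-1.77). Of 7 club and ciliated cell markers 5 were called lower, with Dynlrb2 at -1.24, and they summed to 17.01 and 16.92 in PBEF+/- replicates 1 and 2, 16.84 in replicate 3 and 16.52 to 16.67 in VILI PBEF+/-. Of 9 endothelial markers Tek (-0.82) and Kdr (-1.38) were called lower, while the sums were 15.72, 15.48, 15.75 and 15.59 to 15.66 in the same order and overlapped. Of 10 macrophage markers Cd14 was called higher (1.74) and Csf1r lower (-0.48), of 6 type I markers Rtkn2 was called lower (-0.97), and of 7 type II markers limma called 0, with 0 at an unadjusted p under 0.05. Among heart and skeletal muscle markers, Acta1 was called higher (5.33) and Actc1 lower (-0.72). The part of these cell types in the members' differences was not tested.

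The 2 comparisons share no array, though their standard errors come from one fit. Of the members called, 10 were called in both, which is 76.9% of the 13 and 71.4% of the 14. Over all 11360 tested genes 1315 were called in both, which is 68.0% of those called in the first and 43.8% of those called in the second. Slc7a5, Slc7a1, Slc3a2, Slc6a14, Slc38a2, Slc38a4 and Slc7a6 were higher in both and Slc6a15, Slc38a5 and Slc36a2 lower in both. Slc36a4, Slc7a7 and Slc7a4 were called in VALI against Control alone, and Slc38a6, Slc6a6, Slc7a6os and Slc43a2 in the other alone, where a call in one comparison does not show a difference between them. All 17 members called in either had the same sign in both, and 26 of the 33 tested had. Over all genes, 95.1% of the 3621 called in either and 76.1% of all tested had the same sign in both. Across the 33 members, which are not independent replicates, the Pearson correlation of the differences was 0.91, beside 0.79 across all tested genes, and Slc7a5 lies far from the rest.

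**Figure D3:**
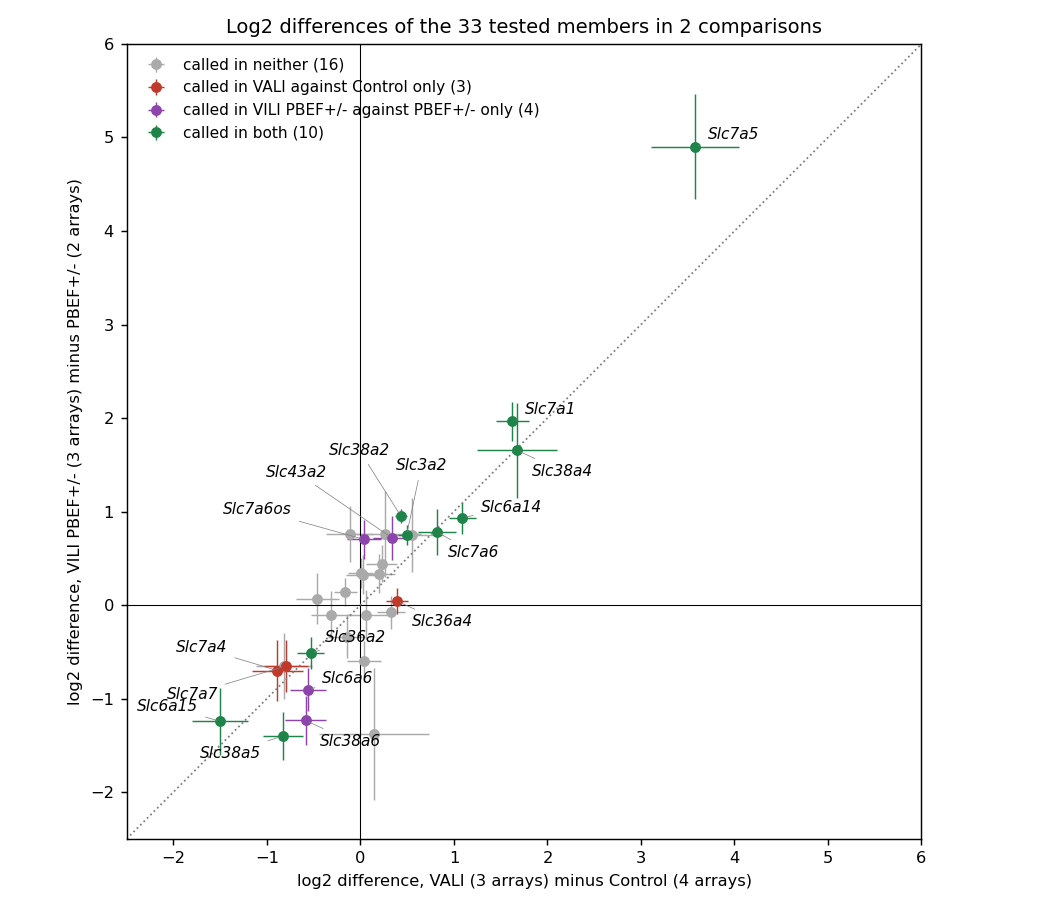
Log2 difference of each of the 33 tested members in VALI minus Control (horizontal axis) and in VILI PBEF+/- minus PBEF+/- (vertical axis), without the 2 arrays, with standard errors as bars and the dotted line marking equal differences. The 10 members called in both (green) lie in the upper right, led by Slc7a5 at 3.58 and 4.90, and in the lower left, with Slc6a15 at -1.50 and -1.24.

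The remaining comparisons called no member in either setting. In PBEF+/- against Control, limma called 0 members and 0.0% of all genes as labelled and without the 2 arrays, with 3 and 8 members, and 938 and 1257 genes, at an unadjusted p under 0.05. The smallest p belonged to Slc38a7, a lysosomal glutamine carrier, with -0.67 ± 0.26 as labelled and -0.88 ± 0.28 without the 2 arrays (adjusted p = 0.593 and 0.45). Its levels were 6.998 to 7.31 in Control and 6.87, 5.63 and 6.88 in PBEF+/- replicates 1 to 3, so that replicate 2 alone was far below Control. Slc38a10 (-0.29 ± 0.12) and Slc6a14 (0.52 ± 0.23) followed as labelled, and Slc38a2 (-0.20 ± 0.07) and Slc43a2 (-0.63 ± 0.23) without the 2 arrays. PBEF+/- replicate 2 was the lowest of all 14 arrays for Slc38a7. This also held for Slc7a5 (3.81), Slc43a3 (12.08), the creatine carrier Slc6a8 (8.83), the glycine carrier Slc6a9 (8.27) and Slc1a3 (8.89). Further cases were Slc1a5 (10.49), Slc38a10 (9.89), Slc43a2 (9.73), Slc7a1 (9.15) and Slc7a6os (6.38). Of these, Slc7a5, Slc7a1, Slc43a2 and Slc7a6os were called higher in VILI PBEF+/- against PBEF+/- without the 2 arrays. There this array and replicate 1 alone stand for PBEF+/-, so its low values widen those differences. Leaving out replicate 1 beside the 2 arrays, so that replicate 2 alone stood for the group, gave 6 members called lower, beside 16.7% of all genes called in either direction.

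VILI PBEF+/- mice were younger than VALI mice, so that the PBEF+/- title and age cannot be told apart between them. In VILI PBEF+/- against VALI, limma called 0 members where 0.0% of all genes were called as labelled, and 0 members where 0.114% were called without the 2 arrays, with 3 members at an unadjusted p under 0.05 in each. Slc38a2 had the smallest p in both settings, with 13.16 to 13.19 in VALI replicates 1 to 3 beside 13.39 to 13.57 in VILI PBEF+/-. Those arrays did not overlap, and the difference was 0.42 ± 0.16 as labelled (adjusted p = 0.444) and 0.32 ± 0.07 without the 2 arrays (adjusted p = 0.142). Next came Slc7a6os (0.40 ± 0.17) and Slc38a5 (-0.65 ± 0.29) as labelled, and Slc36a4 (-0.29 ± 0.12) and Slc7a6os (0.42 ± 0.19) without the 2 arrays. Leaving out VILI PBEF+/- replicate 3 as well gave 1 called member, beside 0.942% of all genes.

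The interaction asks whether the ventilated minus unventilated difference was unequal between the PBEF+/- groups and the other pair. Only the VILI PBEF+/- mice were younger, so that the PBEF+/- title and age cannot be told apart here either. limma called 0 members where 0.0% of all genes were called in both settings, with 1 member at an unadjusted p under 0.05 as labelled and 4 without the 2 arrays. Slc38a2 had the smallest p without the 2 arrays, with a difference larger by 0.52 ± 0.10 in the PBEF+/- groups (adjusted p = 0.289). Slc7a6os (0.66 ± 0.28) and the lysosomal arginine sensor Slc38a9 (-0.64 ± 0.28) followed. As labelled, Slc7a6os (0.60 ± 0.24), Slc36a4 (-0.43 ± 0.21) and Slc38a9 (-0.48 ± 0.27) came first. For Slc7a5 the interaction without the 2 arrays was 1.33 ± 0.74 (adjusted p = 0.539). As labelled, leaving out any 1 array gave 0 called members. Without the 2 arrays, leaving out VILI PBEF+/- replicate 3 as well gave 1, beside 0.361% of all genes. Leaving out PBEF+/- replicate 1 in that setting gave further calls, but replicate 2 alone then stood for its group.

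The arrays of the 2 groups did not overlap for 6 of 33 members in VALI against Control as labelled, where this held for 10.7% of all genes, and for 17 without VALI replicate 4, where it held for 35.5%. In VILI PBEF+/- against PBEF+/- it held for 8 members as labelled beside 19.3% of all genes, and for 21 without PBEF+/- replicate 3 beside 51.0%. Among the 13 members called in VALI against Control, VALI replicate 4 was nearer to the Control mean than to the mean of the other VALI arrays for all 13, and within the Control range for 7. Among the 14 called in the other comparison, PBEF+/- replicate 3 was nearer to the VILI PBEF+/- mean for 11 and within its range for 3. These members were called in fits without the 2 arrays, and the same was not counted over all genes. The counts therefore describe the 2 arrays and do not set the members apart from other genes.

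**Figure D4:**
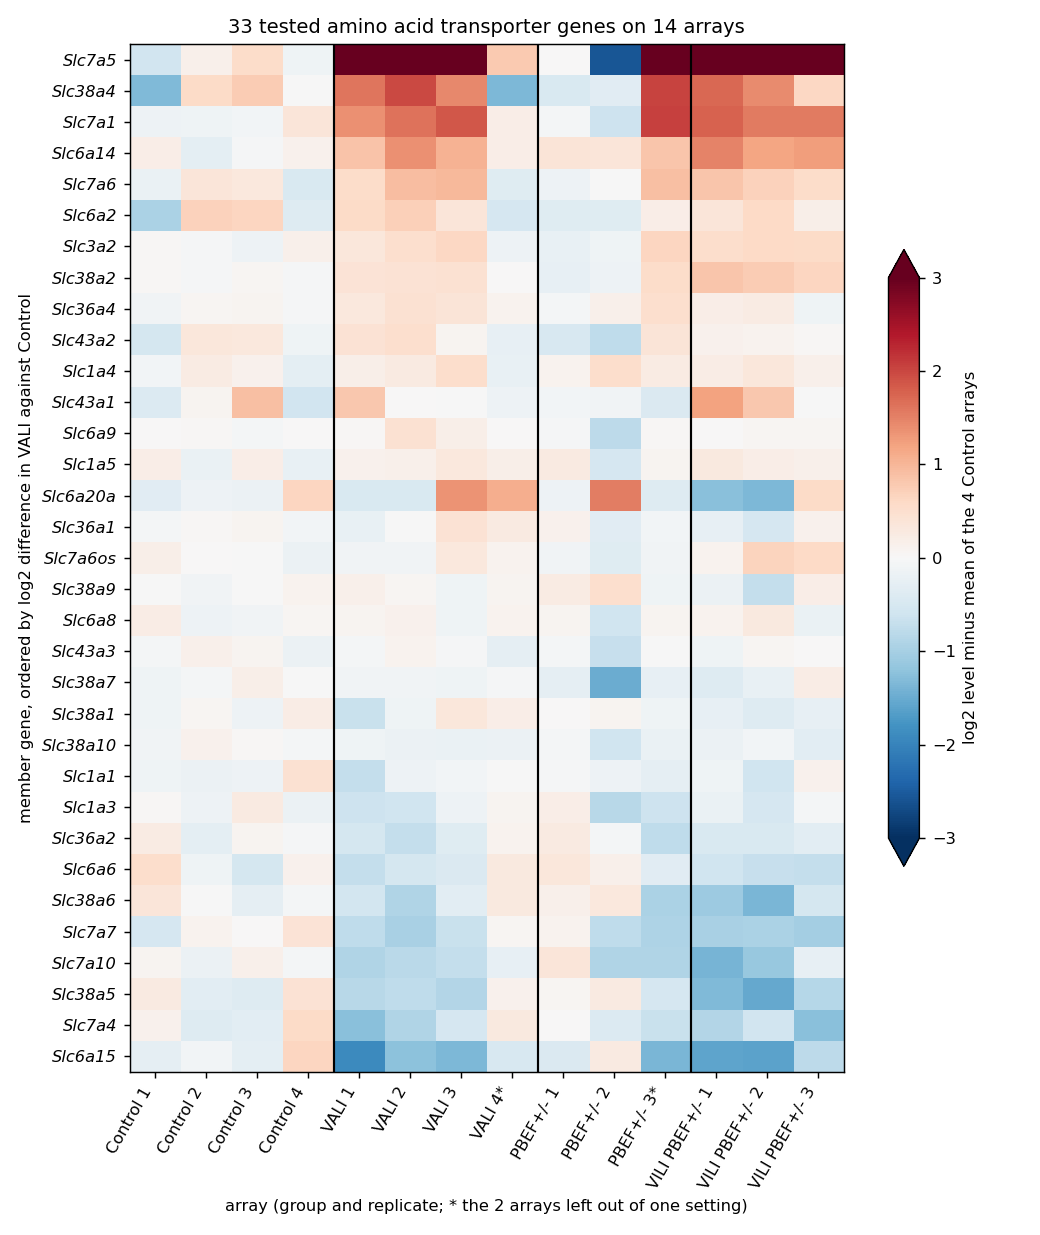
Log2 level minus the mean of the 4 Control arrays (colour, from -3 to 3, with values beyond at the end colours) for the 33 tested members (rows, ordered by log2 difference in VALI against Control without the 2 arrays) on the 14 arrays (columns, with lines between the groups). The columns of VALI replicate 4 and PBEF+/- replicate 3, marked by asterisks, look unlike the rest of their groups in the top and bottom rows, and Slc7a5 in PBEF+/- replicate 2 is far below Control.

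The glutamate and neutral exchangers of the Slc1 family were expressed at 8.27 to 9.43 (Slc1a1), 8.89 to 9.999 (Slc1a3), 9.77 to 10.59 (Slc1a4) and 10.49 to 11.32 (Slc1a5) over the arrays, and limma called 0 of these 4 in any comparison of either setting, with 0 at an unadjusted p under 0.05. In VALI against Control without the 2 arrays their differences ran from -0.46 ± 0.23 for Slc1a3 to 0.33 ± 0.15 for Slc1a4. Slc43a3 differed by 0.34 ± 0.16 in VILI PBEF+/- against PBEF+/- (adjusted p = 0.127). Slc6a20a, a proline carrier, varied most among the members not called, from 5.76 to 8.66 over the arrays, with overlapping groups in both ventilation comparisons. The largest absolute difference of the 16 tested members called in neither ventilation comparison was 1.38.

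Genes that make amino acids or answer their shortage were compared with the carriers. The counts below are without the 2 arrays. Of all tested genes, 6.53% were then called higher in VALI against Control and 11.2% in VILI PBEF+/- against PBEF+/-. Called lower were 10.5% and 15.3%. As labelled, limma called 0.0% of all genes in each, and so none of these lists. Of 14 tested amino acid synthesis genes, 8 were called higher and 0 lower in VALI against Control without the 2 arrays (median difference 0.63), led by the serine synthesis gene Psat1 (2.25 ± 0.24) and the asparagine synthetase Asns (1.14 ± 0.16). In VILI PBEF+/- against PBEF+/-, 8 of these 14 were called higher (median 0.61). Of 15 tested genes of the ATF4 stress response, a transcription factor program induced by amino acid shortage, 6 and 9 were called higher in the 2 comparisons (medians 0.61 and 0.93), with Sesn2 at 1.64 ± 0.24 and 1.97 ± 0.28. Of 21 tested genes that sense amino acids for the growth kinase mTORC1, limma called 0 in VALI against Control, with 8 at an unadjusted p under 0.05, and called 1 higher and 2 lower in the other. A list of 13 tested carriers from other families, which also holds carriers of peptides, lactate and organic cations, had 2 called higher in VALI against Control and 3 in the other. These were the peptide and histidine carrier Slc15a3 (1.12 ± 0.29) and the organic cation extruder Slc47a1 (0.87 ± 0.21) in the former. In the latter they were Slc15a3 (1.06 ± 0.34), the aromatic amino acid carrier Slc16a10 (0.78 ± 0.20) and the mitochondrial glycine carrier Slc25a38 (1.54 ± 0.40). The cystine exchanger Slc7a11, another light chain of Slc3a2, was called higher in both (5.29 ± 0.28 and 4.73 ± 0.33), while Slc7a2 was not called (-0.25 ± 0.22 and -0.65 ± 0.26). As labelled, Slc7a11 differed by 3.99 ± 1.16 and 3.27 ± 1.34 (limma adjusted p = 0.142 and 0.208).

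Promoter windows (250 bases before to 50 after a start, RefSeq, GRCm38.p6) were available for 45 of the 61 genes and for 12 of the 17 called in either ventilation comparison. Slc7a5, Slc6a15 and Slc6a6 were among those without a window and were not searched. They were searched on both strands for TGATGNAA, the C/EBP-ATF element through which ATF4 acts, TGANTCA (AP-1), TGACNNNGC (antioxidant response element) and CACGTG (E-box). The C/EBP-ATF letters occurred in windows of 3 of the 45 (6.67%), beside 4.51% of the 27025 genes with windows. Of the 12 called members with windows, Slc7a7 alone had them. The AP-1 letters occurred in 9 of 45 (beside 8.97% of genes), the antioxidant letters in 10 (22.2%, beside 13.99%) and the E-box in 9 (beside 8.09%). The following stretches are a selection, 1 for each of 5 called members, that show these letters before the start in capitals, each from the gene's strand, and the capitals overlap no other of these motifs.
Slc7a1 (AP-1, chr5:148399991-148400057, minus strand): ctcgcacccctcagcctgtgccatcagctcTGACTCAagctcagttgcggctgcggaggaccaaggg
Slc6a14 (AP-1, chrX:21714788-21714854, plus strand): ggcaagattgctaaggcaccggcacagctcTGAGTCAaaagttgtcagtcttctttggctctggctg
Slc38a2 (antioxidant, chr15:96699729-96699785, minus strand): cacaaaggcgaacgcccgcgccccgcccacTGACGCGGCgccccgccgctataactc
Slc38a5 (E-box, chrX:8271321-8271380, plus strand): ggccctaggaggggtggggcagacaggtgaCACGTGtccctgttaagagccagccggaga
Slc7a7 (C/EBP-ATF, chr14:54418048-54418115, minus strand): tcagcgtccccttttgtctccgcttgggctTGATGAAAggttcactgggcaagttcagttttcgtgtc

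The capitals begin 123 bases before the start in Slc7a1, 82 in Slc6a14, 27 in Slc38a2, 30 in Slc38a5 and 141 in Slc7a7. Further matches before a start in called members, not printed, were antioxidant letters in Slc7a6 (68 bases before) and Slc7a1 (11) and a second C/EBP-ATF match in Slc7a7 (243 before another start). Of the genes printed above, Slc7a1, Slc6a14 and Slc38a2 were higher in both ventilation comparisons and Slc38a5 lower in both. Slc7a7, the one with the C/EBP-ATF letters, was called lower in VALI against Control alone. A match of letters is a description and no binding was measured.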

How the data were processed

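Total RNA of whole lung was extracted with Trizol and labelled with biotin from 6 µg per array, per the labels' protocols. The authors deposited log2 values per probe set, with MAS5 and GCRMA listed, without version or role, in the submitters' processing notes. The precision is limited by the number of arrays. Of 45101 probe sets, 34958 have 1 gene symbol in GEO's platform annotation, 932 several and 9211 none, and those with 1 symbol gave 18194 genes, each by its probe set of highest mean. Genes above the array median on at least 3 of 14 arrays (11360) were fitted together in all 4 groups with limma 3.58.1 (lmFit, eBayes with trend) in R 4.3.3, and p-values were adjusted by Benjamini-Hochberg. The fit was tested on simulated data first. All 61 genes were matched to RefSeq (GRCm38.p6) by Entrez identifier, and 30 have several probe sets.

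Replicate numbers were checked for pairing: over 19 pairs of same-numbered arrays the correlation of deviations from the group means ran from -0.35 to 0.32, with 7 over 0.1. Those means held the 2 arrays that went against their labels, so the check cannot decide on pairing. The labels state no pairing, and the main fits used none. The members and lists were chosen with earlier results of these data known. Named were members called in any comparison, otherwise the 3 with the smallest p, the 8 with the highest mean, heavy chains with their light chains, and up to 2 genes of each list. The Slc1 carriers, Slc6a8, Slc6a9, Slc6a20a and the difference of Slc43a3 were added after their values were seen.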

Additional observations from a re-analysis of the deposited data

Results flagged for a closer look

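Among the 17 called members, each of the 34 groups of 4 arrays (Control and VALI) was examined for an array far from the rest, by the gap to its nearest neighbour as a share of the group's range, against Dixon's critical value for 4 samples. Of these, 4 were marked. Chance marks about 1 in 20 groups, but these genes were called in fits without VALI replicate 4, so that rate does not hold for the VALI groups. VALI replicate 4 stood apart for Slc38a2, where its log2 level of 12.76 lay below 13.16 to 13.19 in the other VALI arrays (gap share 0.928). The same array stood apart for Slc38a5, at 9.22 above 8.22 to 8.32 (gap share 0.893), and for Slc38a4, at 7.25 below 10.05 to 10.58 (gap share 0.84). It is 1 of the 2 arrays that went against their labels in interleukin 6. Control replicate 4 stood apart for Slc7a1, at 10.14 above 9.61 to 9.69 (gap share 0.848).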

How the results depend on the processing

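The pattern of Xist and Eif2s3y as a covariate and the fit on arrays with Xist above Eif2s3y were chosen after seeing the data, since the Y-linked gene planned for it is not named in the annotation used here. Of the 27 called pairs of member and comparison without the 2 arrays, 12 kept their call under all 22 alternatives and 0 turned their sign under any. Counts of called members changed by more than 1.5 times as follows, and the causes were not tested (share of all genes called in parentheses). In VALI against Control without the 2 arrays (13), the covariate gave 7 (13.98%), the arrays with Xist above Eif2s3y 7 (17.6%) and the replicate block 8 (12.5%), and leaving out 1 array gave 6 to 15. In VILI PBEF+/- against PBEF+/- without the 2 arrays (14), no filter gave 9 (13.2%), array weights 7 (13.7%) and the covariate 8 (18.8%), and leaving out 1 array gave 8 to 15. There the replicate block gave 12 (25.9%). As labelled, array weights gave 18 (41.3%), 12 (29.6%) and 2 (15.1%) in VALI against Control, VILI PBEF+/- against PBEF+/- and VILI PBEF+/- against VALI in place of 0, and the arrays with Xist above Eif2s3y gave 1 (0.361%) in the first. Leaving out 1 array gave 0 to 3 in the first and 0 to 8 in the second. Without the 2 arrays, array weights gave 3 (16.3%) in VILI PBEF+/- against VALI, and leaving out 1 array gave 0 to 1 there. In PBEF+/- against Control and in the interaction the count rose from 0 when PBEF+/- replicate 1 was left out. Replicate 2 alone then stood for its group. In the interaction, leaving out VILI PBEF+/- replicate 3 gave 1 (0.361%). Slc36a2 in VILI PBEF+/- against PBEF+/- as labelled ran from -0.52 to 0.0017 when 1 array was left out, and was above 0 without PBEF+/- replicate 1 alone. Of 13 other probe sets above the array median for called members, counted per comparison, 13 had the sign of the chosen one.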

Other observations

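Slc6a2, which takes up noradrenaline and is known in lung endothelium, differed among unventilated arrays. Its log2 level was 12.10 and 12.06 in Control replicates 2 and 3, as high as the 11.77 to 12.13 of VALI replicates 1 to 3, and 10.47 and 11.03 in Control replicates 1 and 4. VALI replicate 4 was at 10.92, PBEF+/- replicates 1 to 3 at 11.04, 11.05 and 11.61, and VILI PBEF+/- at 11.60 to 12.02. Control replicates 2 and 3 have Xist above Eif2s3y, and Control replicates 1 and 4, VALI replicate 4 and PBEF+/- replicate 2 do not. Slc38a4 (9.17 and 9.36 beside 7.28 and 8.60), Slc43a2 (10.84 and 10.82 beside 9.96 and 10.36) and Slc7a6 (8.26 and 8.20 beside 7.68 and 7.42) were likewise higher in Control replicates 2 and 3 than in replicates 1 and 4. PBEF+/- replicate 1 also has Xist above Eif2s3y. Slc6a2, Slc38a4 and Slc7a6 were not higher there, at 11.04, 8.15 and 7.73 beside 11.05, 8.26 and 7.87 in PBEF+/- replicate 2. Slc43a2 was higher there, at 10.01 beside 9.73. The summed level of 9 endothelial markers was 15.94 and 15.85 in Control replicates 2 and 3 and 15.75 and 15.87 in replicates 1 and 4, so that it overlapped. These genes were singled out after their values were seen, and the part of sex was not tested.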
